A study of Mus musculus with 6 samples.

Results

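The 7 genes studied here encode the receptors for interleukin-1 (IL-1), IL-18 and IL-33 and their adaptor: Il1rl1, Il18r1, Il18rap, Il1r1, Il1r2, Il1rap and Myd88. They were followed in RNA-sequencing libraries of regulatory T cells (Treg cells) sorted from mice. Treg cells are CD4 T cells that depend on the transcription factor Foxp3 and hold immune responses in check. The members were found by gene symbol in the deposited count table, and for each symbol the transcript row with the most reads was kept. All 7 members were present among 23992 symbols, and all 7 passed the filter on low counts that left 12720 genes for testing.

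The study compared Treg cells of Foxp3YFP-Cre/Y mice (WT, 3 libraries) with those of Foxp3YFP-Cre/YCrlf2fl/fl mice (KO, 3 libraries). Crlf2 encodes a chain of the receptor for TSLP, an epithelial cytokine, and it is floxed in the KO group. Both groups carry the Cre and yellow fluorescent protein (YFP) allele at Foxp3, so Cre is driven by the Foxp3 locus, the marker by which the cells were also sorted. Lymph nodes and spleen were pooled, and live CD4+YFP+ cells of CD45.2 mice were sorted. The labels give no age. The strain line of each sample description names the other group's genotype, and groups were taken from the titles and genotype tags. Crlf2 was at 92.8, 146 and 105 CPM (read counts scaled to a common library size with TMM factors) in WT replicates 1 to 3 and at 9.06, 6.72 and 3.55 CPM in KO replicates 1 to 3, which goes with the titles. The labels give spleen and lymph node as the source, whereas the deposited table's own name mentions lung.

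IL-33 is released by damaged barrier cells and is sensed by ST2, the product of Il1rl1. ST2 is known from tissue Treg cells, which it helps to expand, and from mast cells and group 2 innate lymphoid cells. IL-18 binds the product of Il18r1, which needs the product of Il18rap to signal. IL-1 binds the signalling receptor encoded by Il1r1 and the decoy receptor encoded by Il1r2, which lacks a signalling domain. The receptors for IL-1 and IL-33 share the accessory chain encoded by Il1rap, and all the signalling receptors act through the adaptor MyD88.

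Of the members, 5 lie side by side on chromosome 1 (mm10, GENCODE annotation, all on the plus strand), within 477.6 kb that hold 6 protein-coding genes. Il1r2 lies at 40074079 to 40125231, Il1r1 at 40225080 to 40317257, Il1rl1 at 40429570 to 40465415, Il18r1 at 40465552 to 40500854 and Il18rap at 40515362 to 40551705. The other gene in the cluster is Il1rl2, an IL-36 receptor gene. Il1rap lies on chromosome 16 at 26581704 to 26730117 (plus strand) and Myd88 on chromosome 9 at 119335934 to 119341411 (minus strand).

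RefSeq promoter windows (GRCm38.p6, the assembly also called mm10) were matched by symbol for all 7 members, giving 11 windows of 300 bases that run from 250 bases before to 50 bases after a transcript start. Those shown belong to genes of this cluster whose values went in different directions: Il1rl1 with its distal and proximal starts, Il1r2, and 1 start of Il18r1. Of the 11 windows, those without any match to the motifs named next are not shown: the other 2 of Il18r1 and all of Il18rap, Il1r1 and Il1rap. The window of Myd88, with 1 match to TTCNNNGAA at -46, is not shown either. All 4 are on the plus strand. Capitals mark matches on either strand to AGATAA, a core of the kind that Gata3 family factors bind, to TTCNNNGAA, which STAT factors bind, to TGANTCA, which AP-1 binds, or to the E-box CACGTG.
Il1rl1, distal start, chr1:40429320-40429619: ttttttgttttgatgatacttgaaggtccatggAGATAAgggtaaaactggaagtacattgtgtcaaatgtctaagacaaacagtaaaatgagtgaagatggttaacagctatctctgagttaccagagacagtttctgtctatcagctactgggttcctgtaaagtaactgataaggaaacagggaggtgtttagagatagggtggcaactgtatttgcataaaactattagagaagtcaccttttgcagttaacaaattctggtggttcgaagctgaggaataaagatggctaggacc
Il1rl1, proximal start, chr1:40439379-40439678: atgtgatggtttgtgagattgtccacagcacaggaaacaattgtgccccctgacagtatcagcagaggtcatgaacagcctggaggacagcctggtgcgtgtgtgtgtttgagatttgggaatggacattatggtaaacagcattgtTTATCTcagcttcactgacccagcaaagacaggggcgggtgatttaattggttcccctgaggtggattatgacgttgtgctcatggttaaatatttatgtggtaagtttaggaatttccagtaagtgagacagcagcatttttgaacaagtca
Il1r2, chr1:40085843-40086142: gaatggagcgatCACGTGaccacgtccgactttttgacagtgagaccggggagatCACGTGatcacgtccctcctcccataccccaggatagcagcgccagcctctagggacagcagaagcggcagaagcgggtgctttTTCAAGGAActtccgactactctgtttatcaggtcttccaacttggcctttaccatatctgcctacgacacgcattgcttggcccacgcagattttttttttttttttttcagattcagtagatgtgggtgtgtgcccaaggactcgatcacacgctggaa
Il18r1, chr1:40465756-40466055: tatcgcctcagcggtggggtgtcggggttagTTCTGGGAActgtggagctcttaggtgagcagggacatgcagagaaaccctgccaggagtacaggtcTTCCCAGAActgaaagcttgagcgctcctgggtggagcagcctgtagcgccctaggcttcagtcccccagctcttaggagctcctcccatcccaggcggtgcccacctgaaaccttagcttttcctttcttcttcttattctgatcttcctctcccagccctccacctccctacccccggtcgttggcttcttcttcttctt
Each Il1rl1 window held 1 match to AGATAA, at position -217 of the distal and -103 of the proximal start, counted from the transcript start. The Il1r2 window held CACGTG at -238 and -195 and TTCNNNGAA at -111, and the Il18r1 window held TTCNNNGAA at -219 and -152. None of the marked matches overlapped another. Among all 32851 promoter windows of the table, 11.18% held AGATAA, 8.3% TTCNNNGAA, 7.81% TGANTCA and 7.15% CACGTG. These are matches of letters only. GENCODE counterparts of the counted transcript rows start at 40084698 for Il1r2 (NM_010555). For Il1rl1 they start at 40439627 (NM_001025602) and 40439776 (NM_010743). The Il1r2 window and the distal Il1rl1 window hold none of these starts.

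The shallowest library, WT replicate 2, held 1439736 counts and the deepest, KO replicate 3, 18352401, so that 3 counts, the limit a count of 0 allows, equalled 2.05 CPM in WT replicate 2 and 0.157 to 0.401 CPM elsewhere. WT replicate 3 stood apart. The red cell transcript Hba-a1 was at 30164 CPM in it and at 330.2 to 1222 CPM in the other 5 libraries, and Foxp3 was at 200.1 CPM against 386 to 489 CPM. The summed level of 13 T cell genes was 4925 CPM there, against 7116 to 8338 CPM elsewhere. Lung epithelial transcripts (12 of 12 listed genes tested, led by Scgb1a1) made up 1.71% to 7.60% of each WT library and 0.245% to 1.97% of each KO library. All 7 Treg markers (Foxp3, Il2ra, Ctla4, Ikzf2, Tnfrsf18, Cd4 and Cd3e) were detected in every library. In sorted bulk samples, fewer cells of a type and less RNA per cell cannot be told apart.

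No member was called between KO and WT at an edgeR adjusted p under 0.05, where 1.74% of all tested genes were called (0.755% higher, 0.983% lower). DESeq2 called 1 member (Il1r2, 6.78% of all genes called), limma-voom none (2.43%), and edgeR with no low-count filter 1 (Il1r2 again, 1.36%). Il1r2 came nearest, with a mean 2.66-fold higher in KO. Il1rl1 also had a higher mean in KO, Il18r1, Il18rap, Il1r1 and Myd88 had lower means, and Il1rap was nearly level. At an unadjusted p under 0.05 there were 4 members (Il1r2, Myd88, Il18r1 and Il1rl1), where 15.9% of all tested genes reached it. For 3 members the groups had no overlap, where this held for 22.0% of all tested genes. Il1r2 was above WT (10.4% of all genes), and Il18r1 and Myd88 were below (11.5%). The median log2 fold change of the 7 members was -0.46, beside -0.04 for all tested genes. Whether replicates are separate mice is not stated in the labels, so the p-values cover the spread between these libraries, which may be technical.

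**Figure D1:**
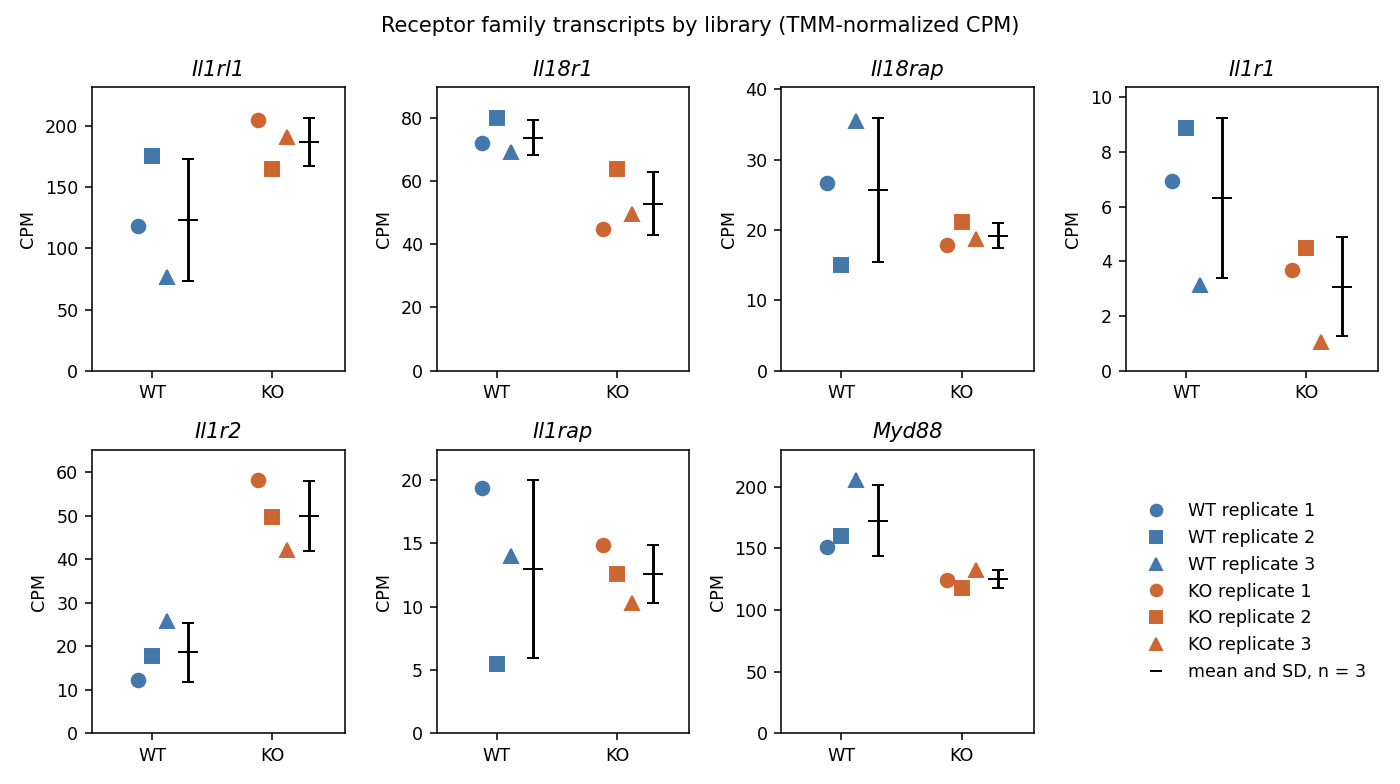
TMM-normalized CPM of the 7 members in each library (one panel per gene, linear axis from 0; symbols are libraries, bars the mean and SD of 3). The Il1r2 panel has the 3 KO libraries at 42.0 to 58.1 CPM, above the 3 WT libraries at 12.3 to 25.7 CPM, while the groups overlap for Il1rl1, Il18rap, Il1r1 and Il1rap.

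Il1rl1, which encodes the IL-33 receptor ST2, was at 118, 176 and 76.4 CPM in WT replicates 1 to 3 and at 205, 165 and 191 CPM in KO replicates 1 to 3. The KO libraries lay close together, and WT replicate 2 was above KO replicate 2, so that the groups overlapped. The means were 123 ± 49.9 CPM in WT and 187 ± 20.0 CPM in KO (SD, n = 3 each). The log2 fold change was 0.62 (SE 0.27, 95% interval 0.0055 to 1.24, edgeR adjusted p = 0.312), a difference that did not pass the test. Its lowest value was that of WT replicate 3, and without that library the log2 fold change was 0.37 (edgeR adjusted p = 0.329). Without WT replicate 2, the highest WT library, it was 0.97 (edgeR adjusted p = 0.101), and these are the ends of its range over 17 alternatives. Divided by the counts of the T cell gene Cd3e, Il1rl1 stood at 0.261, 0.320 and 0.253 in WT and at 0.336, 0.270 and 0.311 in KO. These ratios overlapped (two-sided exact permutation p = 0.3, adjusted p = 0.6 over 12 ratios computed, smallest possible p = 0.1). Mast cell and basophil markers, of which Mcpt4, Cma1, Tpsab1 and Fcer1a were at 0 in some libraries, summed to 9.81 to 12.2 CPM in KO, and to 12.3, 17.8 and 309 CPM in WT replicates 1 to 3. WT replicate 3 was highest in these markers, lowest in Il1rl1 and lowest in the summed T cell genes. The part of mast cells and basophils in the Il1rl1 values was not tested. Markers of group 2 innate lymphoid cells, which also carry ST2, summed to 76.0, 132 and 177 CPM in WT and to 247, 221 and 304 CPM in KO. This sum includes Areg and Il9r, which also accompany ST2 in tissue Treg cells, so it does not measure innate lymphoid cells alone. It also includes Arg1, at 3.48, 14.4 and 61.9 CPM in WT and at 49.0, 55.6 and 71.3 CPM in KO. Il13 was at 7.73 CPM or less in every library. Of 7 markers tested, 5 had higher and 2 lower means in KO. Among them Calca rose (log2 fold change 2.96, SE 0.39, adjusted p = 0.0162 by edgeR), while Il5 was at 2.74 CPM or less in all libraries but WT replicate 3. The part of innate lymphoid cells in the Il1rl1 values was not tested either.

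The table holds 2 rows for Il1rl1. NM_001025602, the row used above (5071 bases in the table), codes the membrane receptor, and NM_010743 (3002 bases) codes the shorter soluble form, a decoy that captures IL-33. Their GENCODE counterparts have 11 exons with 1701 coding bases and 8 exons with 1011 coding bases, and 1473 exonic bases of the short form lie in no exon of the long one. How reads in exons common to both forms were assigned is not given in the sources used here, so a ratio of rows is not the share of a form. The short row held 316, 100 and 305 reads in WT and 730, 742 and 975 reads in KO, against 884, 257 and 808 and then 2103, 2067 and 3662 reads of the long row. The ratio of short to long was 0.357, 0.389 and 0.377 in WT and 0.347, 0.359 and 0.266 in KO. KO replicate 3 was lowest and the groups overlapped (two-sided exact permutation p = 0.2, adjusted p = 0.6 over 12 ratios). With every row tested as its own feature, the log2 fold change was 0.62 (SE 0.27) for the long row and 0.43 (SE 0.30, edgeR adjusted p = 0.539) for the short row.

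Il18r1, which encodes the chain that binds IL-18, was at 72.1, 80.1 and 69.1 CPM in WT replicates 1 to 3 and at 44.8, 64.0 and 49.6 CPM in KO replicates 1 to 3. All KO libraries were below all WT libraries, KO replicate 2 being nearest to WT. The means were 73.8 ± 5.65 and 52.8 ± 9.97 CPM (SD, n = 3 each). The log2 fold change was -0.48 (SE 0.18, 95% interval -0.88 to -0.07, edgeR adjusted p = 0.237). This did not pass the test. Without WT replicate 3 the log2 fold change was -0.52 (edgeR adjusted p = 0.204), so that the value hardly moved. The table has 3 rows for Il18r1, and the 2 shorter rows both had a log2 fold change of -0.57 (SE 0.18). Il1rl1 ends 136 bases before Il18r1 begins on the same strand, yet the means of these neighbours differed in opposite directions. The ratio of Il1rl1 to Il18r1 reads was 1.64, 2.2 and 1.11 in WT and 4.57, 2.59 and 3.85 in KO. The ratios did not overlap between groups, and the two-sided exact permutation p was 0.1, the smallest that 3 against 3 libraries can give (adjusted p = 0.6 over 12 ratios). The pair was chosen after the data were seen, so this separation is a description only.

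Il18rap, which encodes the signalling partner chain of the IL-18 receptor, was at 26.6, 15.1 and 35.5 CPM in WT and at 17.8, 21.1 and 18.6 CPM in KO. The KO values all lay inside the WT range. The log2 fold change was -0.46 (SE 0.31, 95% interval -1.16 to 0.25, edgeR adjusted p = 0.530), and -0.17 (edgeR adjusted p = 0.808) without WT replicate 3, the highest library. NK cell markers, of a cell type that also expresses this receptor, summed to 552 CPM in WT replicate 3 but only 8.04 to 32.2 CPM elsewhere, where Ncr1 was at most 2.05 CPM. The part of these cells in the Il18rap value of WT replicate 3 was not tested. The ratio of Il18r1 to Il18rap reads was 2.71, 5.32 and 1.95 in WT and 2.51, 3.03 and 2.66 in KO, with overlap (two-sided exact permutation p = 0.8, adjusted p = 0.873 over 12 ratios).

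Il1r2, the IL-1 decoy receptor gene, was at 12.3, 17.8 and 25.7 CPM in WT replicates 1 to 3 and at 58.1, 49.8 and 42.0 CPM in KO replicates 1 to 3. Every KO library was above every WT library. The means were 18.6 ± 6.75 CPM in WT and 50.0 ± 8.05 CPM in KO (SD, n = 3 each), and the log2 fold change was 1.41 (SE 0.29, 95% interval 0.75 to 2.08). Its edgeR adjusted p of 0.0562 missed the threshold. Without WT replicate 3, the WT library with the highest Il1r2 value, the log2 fold change was 1.81 (SE 0.27) and Il1r2 was called (edgeR adjusted p = 0.0106, where 4.01% of genes were called). With any 1 other library left out, the log2 fold change was 1.15 to 1.53. Il1r2 was then not called (edgeR adjusted p = 0.0972 to 0.263). Scaled to T cell genes, the log2 fold change was 1.03 (edgeR adjusted p = 0.239), with the median of all genes at -0.36. Divided by Cd3e counts, Il1r2 was at 0.0272, 0.0323 and 0.0850 in WT and at 0.0954, 0.0812 and 0.0683 in KO. On that scale WT replicate 3 was above KO replicates 2 and 3 (two-sided exact permutation p = 0.3, adjusted p = 0.6 over 12 ratios).

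Il1r2 is also expressed by neutrophils and macrophages. Neutrophil markers (5 of 8 genes in the table tested, led by Retnlg; Camp was at 0 in 5 libraries) summed to 44.7 to 47.8 CPM in KO and to 50.8, 51.3 and 428 CPM in WT. Single markers differed from this sum: Csf3r was at 5.35, 4.79 and 48.6 CPM in WT and at 7.98, 8.40 and 7.47 CPM in KO, above WT replicates 1 and 2. Retnlg led through WT replicate 3, where it was at 193 CPM. In the other libraries Cxcr2 was the highest neutrophil marker, at 24.9 and 20.5 CPM in WT replicates 1 and 2 and at 28.4, 23.1 and 28.6 CPM in KO. Macrophage markers, led by Chil3 and Lyz2, summed to 2412 to 2664 CPM in KO and to 393, 755 and 8113 CPM in WT replicates 1 to 3. They were higher in KO than in WT replicates 1 and 2 and highest in WT replicate 3, where Il1r2 was below all KO libraries. The part of either cell type in the Il1r2 difference was not tested.

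Il1r1, the signalling IL-1 receptor gene, had the lowest mean of the members in both groups, with 52, 13 and 33 reads in WT and 38, 56 and 20 reads in KO. This came to 6.95, 8.90 and 3.12 CPM in WT and to 3.70, 4.48 and 1.04 CPM in KO. The groups overlapped at WT replicate 3. The log2 fold change of -1.0 (SE 0.69) had a 95% interval of -2.57 to 0.57 (edgeR adjusted p = 0.537), which spans 0. It moved from -0.58 without KO replicate 3 (edgeR adjusted p = 0.841) to -1.38 without KO replicate 2 (edgeR adjusted p = 0.554), and was -0.69 without WT replicate 2 and -1.35 without WT replicate 3. Endothelial and stromal markers summed to 110 to 158 CPM in WT and 78.9 to 98.8 CPM in KO. Most of each sum was Pecam1, at 71.5, 120 and 89.3 CPM in WT and at 73.4, 62.8 and 68.4 CPM in KO. Of 5 tested markers, 4 had lower means in KO and 1, Vwf, a higher one. Vwf was at 0.802, 1.37 and 18.6 CPM in WT and at 11.0, 14.2 and 8.98 CPM in KO. The part of these cells in the Il1r1 values was not tested. The ratio of Il1r2 to Il1r1 reads was 1.77, 2.0 and 8.24 in WT and 15.7, 11.1 and 40.3 in KO. Decoy receptor reads outnumbered those of the signalling receptor in every library. The ratio was higher in all 3 KO libraries (two-sided exact permutation p = 0.1, the smallest possible, adjusted p = 0.6 over 12 ratios). This pair too was chosen after the data were seen, so the separation is a description only.

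Il1rap, the shared accessory chain gene, was at 19.4, 5.47 and 14 CPM in WT and at 14.9, 12.6 and 10.3 CPM in KO. The KO values lay inside the WT range, whose lowest value rested on 8 reads in the shallow WT replicate 2. The log2 fold change was -0.10 (SE 0.43, 95% interval -1.08 to 0.88, edgeR adjusted p = 0.938), and its sign differed between alternatives. As for Il1rl1, a ratio of rows of Il1rap is not the share of a form. Of the 4 rows of Il1rap, NM_134103, with only 7 reads in WT replicate 2, codes a soluble form. Reads of that row over those of the row used were 0.690, 0.875 and 0.703 in WT and 0.791, 0.637 and 0.822 in KO, with overlap (two-sided exact permutation p = 1).

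Myd88, the adaptor gene, was at 151, 160.1 and 205 CPM in WT and at 125, 118 and 132 CPM in KO. Every WT library was above every KO library. The means were 172 ± 28.9 and 125 ± 7.16 CPM (SD, n = 3 each), and the log2 fold change was -0.46 (SE 0.15, 95% interval -0.81 to -0.12, edgeR adjusted p = 0.175). This did not pass the test. WT replicate 3 was the highest library, and without it the log2 fold change was -0.31 (edgeR adjusted p = 0.246).

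**Figure D2:**
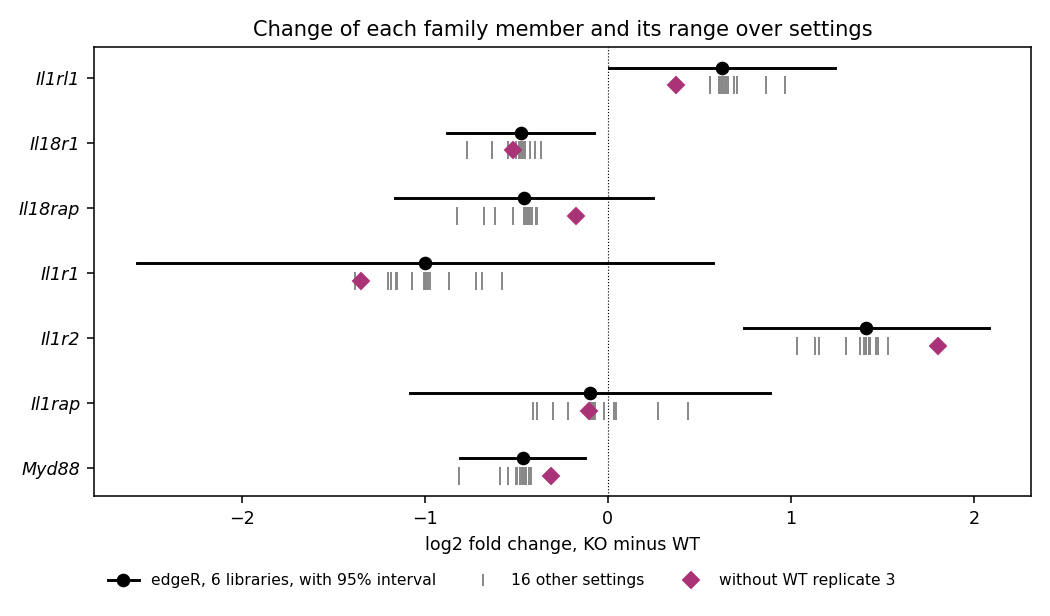
Log2 fold change (KO minus WT) of each member with its 95% interval from edgeR (black), the values under 16 other settings (grey ticks) and without WT replicate 3 (diamonds). Il1r2 ranges from 1.03 to 1.81 and stays positive, and of the 7 members Il1rap alone has values on both sides of 0.

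Per transcript length, the family had a steep order of levels. In RPKM (CPM divided by the table's row length in kilobases), Myd88 was highest in every library at 62.0 to 108 RPKM. In WT it was followed by Il1rl1 (24.4 ± 9.84 RPKM), Il18r1 (17.7 ± 1.36), Il1r2 (13.8 ± 5.02) and Il18rap (10.4 ± 4.13). Neighbours among these 4 overlapped in their library values. Il1rap (2.83 ± 1.53) and Il1r1 (1.32 ± 0.611) came last and overlapped too. In KO, Il1r2 (37.2 ± 5.99 RPKM) and Il1rl1 (36.9 ± 3.94) stood side by side and overlapped. Both lay above Il18r1 (12.7 ± 2.40), Il18rap (7.74 ± 0.696), Il1rap (2.75 ± 0.504) and Il1r1 (0.640 ± 0.375), and no 2 neighbours of this lower group overlapped. Errors are SD with n = 3. The order rests on the rows kept and on their table lengths. NM_001161842, a shorter Il18r1 row, was at 31.3, 38.5 and 29.8 RPKM in WT, above the Il1rl1 row in each WT library. In KO it was at 21.2, 25.6 and 19.8 RPKM, below the Il1rl1 row. The Il18rap row has 2481 bases in the table, against 4889 exonic bases of its GENCODE counterpart. The rank of Il1r2 among the 7 was 5, 4 and 2 in WT replicates 1 to 3 and 2, 2 and 3 in KO.

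**Figure D3:**
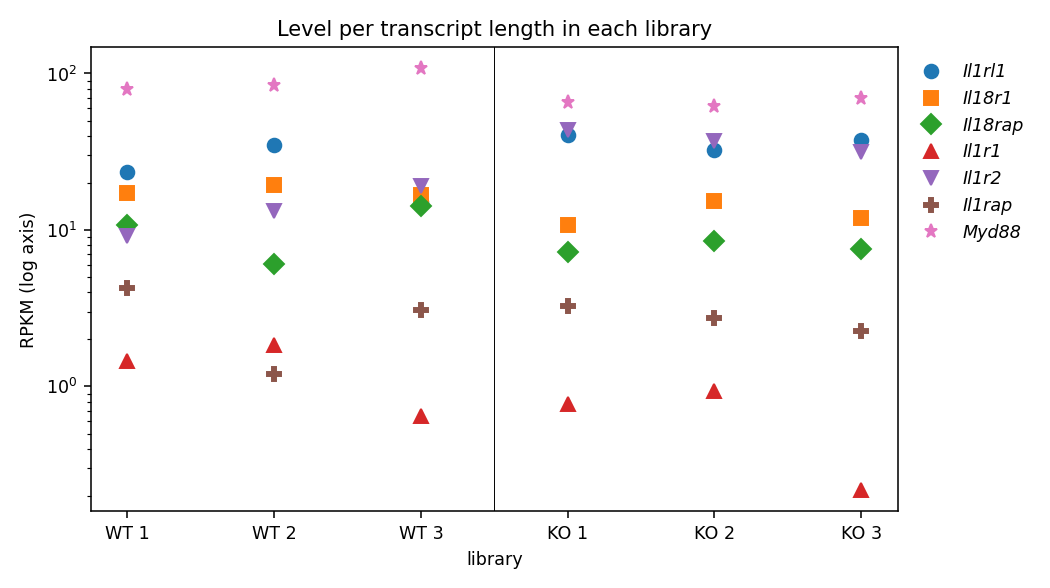
RPKM of the 7 members in each library on a log axis, WT left and KO right of the line. Myd88 is on top throughout. Il1r2 and Il1rl1 come together at 31.3 to 43.3 RPKM in KO, and Il1rap and Il1r1 lie at 4.24 RPKM or less.

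The differences along the chromosome 1 cluster had both signs. In order, as log2 fold changes, they were 1.41 for Il1r2, -1.0 for Il1r1, 0.15 for Il1rl2 (SE 1.13, at most 2.84 CPM), 0.62 for Il1rl1, -0.48 for Il18r1 and -0.46 for Il18rap. The tested genes next to the cluster were Map4k4, a kinase gene on the side of Il1r2, with -0.21 (SE 0.18, edgeR adjusted p = 0.613), and Mfsd9 on the side of Il18rap, with 0.18 (SE 1.39) at 2.0 CPM or less in every library.

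**Figure D4:**
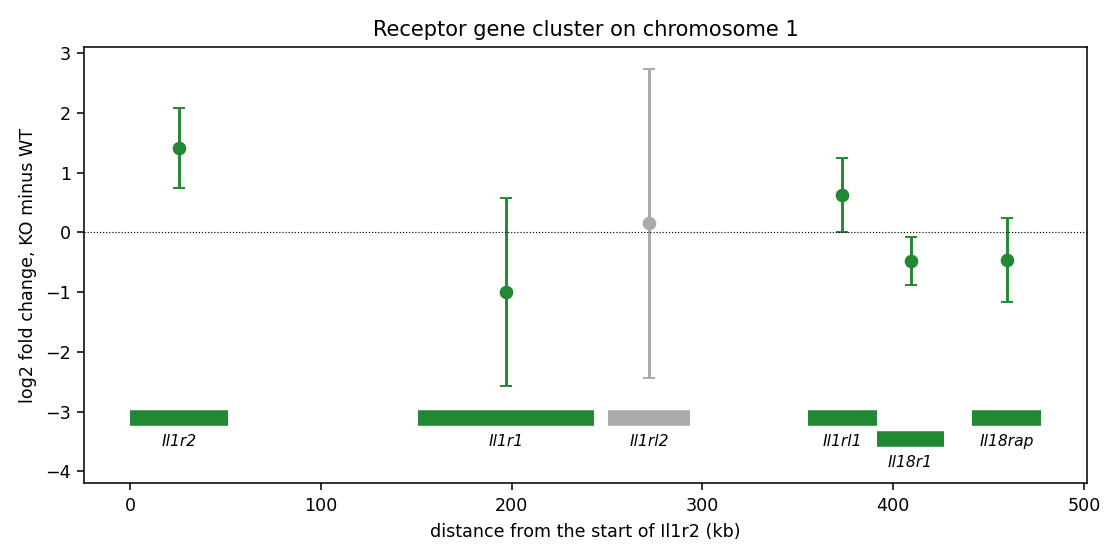
Log2 fold change (KO minus WT) with 95% interval of the 6 protein-coding genes of the chromosome 1 cluster against distance from the start of Il1r2 in kb; bars show gene extents, members in green and Il1rl2 in grey. The genes at 1.41 and 0.62 (Il1r2 and Il1rl1) are separated by Il1r1 at -1.0, and Il1rl1 abuts Il18r1 at -0.48.

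The genes whose profile over the 6 libraries was most like that of Il1rl1 were Apbb3, Ctla4, Nit1, Itgb3 and Zxdc. The measure was the root mean square difference of mean-centred log2 CPM, which was 0.07 for Apbb3 and Ctla4, 0.09 for Nit1 and 0.10 and 0.11 for Itgb3 and Zxdc, among 10345 genes compared. Ctla4, a defining inhibitory receptor gene of Treg cells, was at 419, 565 and 239 CPM in WT and at 634, 572 and 646 CPM in KO, and like Il1rl1 was lowest in WT replicate 3. For Il18r1 they included Rad17, Pik3cd, Entpd7 and Ranbp2 (0.07 to 0.08). Pik3cd, a kinase gene of lymphocyte signalling, was at 208, 246 and 223 CPM in WT and at 150.4, 189 and 151 CPM in KO. None of the genes named here as alike was called by edgeR. Among the members the closest pair was Il18r1 and Myd88 (0.26).

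Other genes of the pathway were taken from lists, and their counts stand beside 15.9% of all tested genes with an unadjusted p under 0.05 by edgeR and 6.78% called by DESeq2. Of the ligands and soluble antagonists, 5 were tested, none was called by edgeR or DESeq2, 1 had an unadjusted p under 0.05 by edgeR, and all 5 had lower means in KO (median log2 fold change -1.52). Il1rn, the IL-1 receptor antagonist gene, was at 4.81, 4.79 and 36.4 CPM in WT and at 1.85, 5.04 and 0.418 CPM in KO (edgeR: log2 fold change -2.71, SE 1.11, adjusted p = 0.296). Il18bp, which encodes an IL-18 trap, was at 6.95, 13.0 and 7.76 CPM in WT and at 3.89, 5.28 and 6.53 CPM in KO (edgeR adjusted p = 0.441). Il1b was at 7.49, 5.47 and 119 CPM in WT and at 10.1, 21.3 and 9.03 CPM in KO. Il33 itself, mainly a product of stromal and epithelial cells, was at 7.66 CPM in WT replicate 3 and at 0.0974 CPM or less in the others, and Il18 was at 3.59 CPM or less throughout. The high values of Il1rn, Il1b and Il33 were those of WT replicate 3. Without that library the median was -0.32 and 3 of the 5 had lower means in KO. Il1rn was then at -0.98 on the log2 scale (edgeR adjusted p = 0.622). Il1b had a log2 fold change of 1.01 (edgeR adjusted p = 0.312), the opposite sign of -1.77 with it, and Il1a, at a count of 0 in WT replicates 1 and 2 and at 1.17 CPM or less in KO, changed sign too.

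Of the other receptors, Sigirr, an inhibitory member of the family, was the only one expressed at a level like that of the main receptors. It was at 176, 177 and 88.3 CPM in WT and at 162, 147 and 225 CPM in KO (edgeR: log2 fold change 0.29, SE 0.28, adjusted p = 0.680). Il1rapl1 and Il1rapl2 had a count of 0 in all 6 libraries. Of 22 tested signalling genes after MyD88, none was called by edgeR and 2 by DESeq2, 3 had an unadjusted p under 0.05 by edgeR, shares near those of all genes, and their median log2 fold change was 0.03. Map2k6, a kinase gene upstream of p38, was at 5.08, 4.79 and 3.97 CPM in WT and at 14.6, 9.53 and 12.8 CPM in KO (edgeR: log2 fold change 1.42, SE 0.37, adjusted p = 0.104). Peli2, a ubiquitin ligase gene, was at 3.34, 5.47 and 3.12 CPM in WT and at 0.292, 0.881 and 0.261 CPM in KO (edgeR: log2 fold change -2.99, SE 0.78, adjusted p = 0.108). Both had groups that did not overlap. Irak3, which encodes a kinase-like inhibitor of MyD88 signalling and was picked after its values were seen, was at 2.94, 8.90 and 11.9 CPM in WT and at 22.3, 19.9 and 21.4 CPM in KO. It was not called with all libraries (edgeR: log2 fold change 1.43, SE 0.47, adjusted p = 0.187) and was called without WT replicate 3 (2.10, edgeR adjusted p = 0.0468). The central kinases and ligase Irak4, Irak1 and Traf6, outside the naming rule, had log2 fold changes of 0.05, 0.16 and 0.05.

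Among 7 tested genes of ligand processing none was called by edgeR or DESeq2, and 3 had an unadjusted p under 0.05 by edgeR (median log2 fold change -0.29). Casp4, an inflammatory caspase gene, was at 17.0, 17.1 and 21.1 CPM in WT and at 8.57, 12.6 and 9.66 CPM in KO, without overlap (edgeR: log2 fold change -0.84, SE 0.29, adjusted p = 0.203). Nlrp3, the inflammasome sensor gene, was at 14.3 CPM in WT replicate 3 and between 0.779 and 2.74 CPM elsewhere (edgeR: log2 fold change -2.17, SE 0.79, adjusted p = 0.230). Without WT replicate 3 its log2 fold change was -0.83 (edgeR adjusted p = 0.630). Of 8 tested Toll-like receptor genes, which also signal through MyD88, none was called by edgeR and 1 by DESeq2, 3 had an unadjusted p under 0.05 by edgeR, and all 8 had lower means in KO (median -1.50). Tlr1 was at 30.9, 41.1 and 26.8 CPM in WT and at 13.1, 15 and 7.15 CPM in KO (edgeR: log2 fold change -1.47, SE 0.33, adjusted p = 0.0758). Tlr7 was at 4.01, 7.53 and 10.5 CPM in WT and at 1.93 to 2.72 CPM in KO (edgeR adjusted p = 0.183). Without WT replicate 3 the median was -0.38, 2 of the 8 had higher means in KO and Tlr1 was called lower (edgeR adjusted p = 0.0442). Macrophage and B cell markers, of cells that express several of these receptors, were at their highest in WT replicate 3 (8113 and 344 CPM). Their part was not tested.

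Genes known to accompany ST2 in tissue Treg cells included 5 that rose. Of 18 tested, 5 were called higher and none lower, where 0.755% of all tested genes were called higher, and the list's median log2 fold change was 0.67. In KO, 14 of the 18 had higher and 4 had lower means. Il10, which encodes a suppressive cytokine, was at 42.9, 61.6 and 24.8 CPM in WT and at 187, 193 and 219.9 CPM in KO. Ccr8, a chemokine receptor gene of tissue Treg cells, was at 110, 155 and 95 CPM in WT and at 474, 291 and 521 CPM in KO. Both rose in KO, as did Cxcr6 (71.5, 130.0 and 75.0 CPM against 292, 244 and 327 CPM), Pparg (8.96, 8.21 and 14.9 CPM against 49.7, 32.2 and 44.8 CPM) and Klrg1, the remaining called gene, outside the naming rule, with a log2 fold change of 1.25 and an edgeR adjusted p of 0.0360. The log2 fold changes of the first 4 were 2.27 (SE 0.29), 1.85 (SE 0.26), 1.67 (SE 0.24) and 1.93 (SE 0.30), with edgeR adjusted p of 0.0160, 0.0196, 0.0213 and 0.0263. The list was chosen with results of these data known, so the count is a description. Gata3, the transcription factor gene linked to ST2 expression and outside the naming rule, was at 864, 968 and 496 CPM in WT and at 1610, 1312 and 1751 CPM in KO (edgeR: log2 fold change 1.01, SE 0.24, adjusted p = 0.0904). Areg, which encodes the repair factor amphiregulin and is also outside the rule, was at 40.9, 54.1 and 30.5 CPM in WT and at 58.7, 63.0 and 82.2 CPM in KO (edgeR adjusted p = 0.180). In the other direction, Tnfrsf9, outside the rule too, was at 173, 159 and 82.5 CPM in WT. It was at 65.5, 59.1 and 71.8 CPM in KO (edgeR: log2 fold change -1.07, SE 0.26, adjusted p = 0.0937). Whether the difference of Il1rl1 itself is smaller than those of these genes was not tested. No gene of the list was called when KO replicate 1, WT replicate 1 or KO replicate 3 was left out or when the fit had the share of lung epithelial transcripts as a term, and 2 genes of the list were called without WT replicate 2 or with the replicate block. The list's median log2 fold change stayed between 0.61 (without KO replicate 3) and 0.80 (without WT replicate 2) in these fits. Scaled to T cell genes, the list's median was lower, at 0.36, with 4 genes called higher and 1 lower. The median of all genes was then -0.36, with 25 of all genes called higher and 170 lower. Without WT replicate 3, 7 were called higher and Tnfrsf9 lower, where 4.01% of all genes were called (242 higher and 276 lower). The summed macrophage markers given above were also higher in KO than in WT replicates 1 and 2, and the summed innate lymphoid markers, which include Areg and Il9r of this same list, were higher in KO than in all 3 WT libraries. Their part was not tested.

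**Figure D5:**
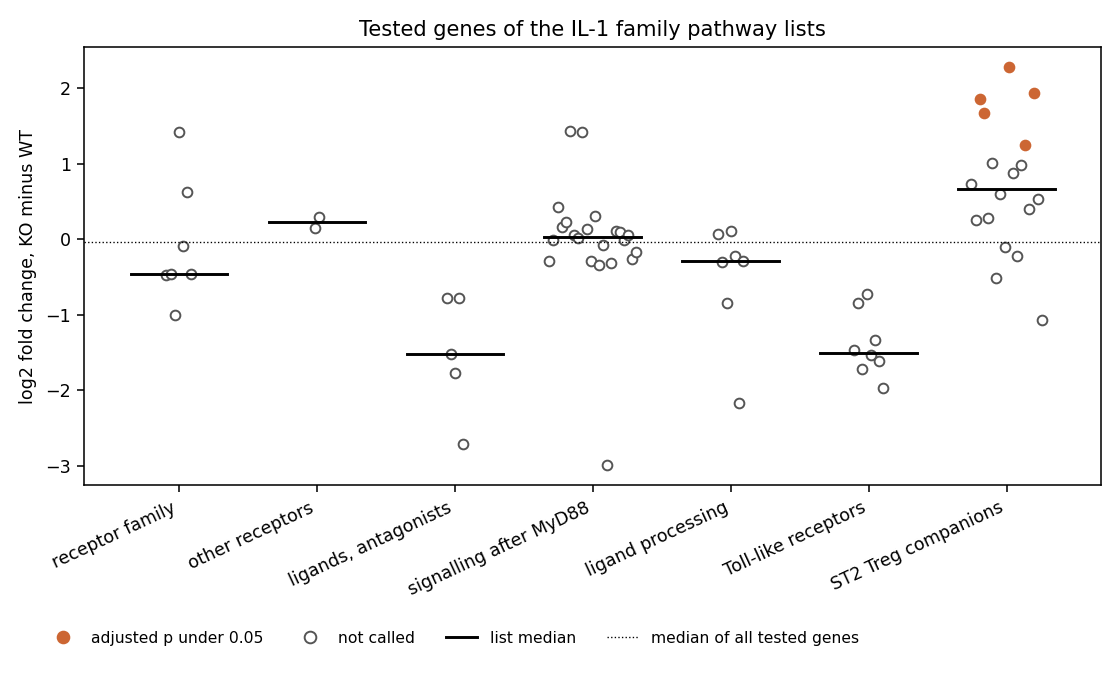
Log2 fold change (KO minus WT) of each tested gene in the 7 gene lists; filled points have an edgeR adjusted p under 0.05, thick lines are list medians and the dotted line the median of all tested genes (-0.04). The 5 filled points are all in the list of genes that accompany ST2, and the receptor family spans -1.0 to 1.41 with no filled point.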

How the data were processed

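RNA of sorted mouse Treg cells was sequenced on an Illumina NovaSeq, per the labels. The deposited table gives unnormalized counts of reads for each RefSeq transcript, beside its length in bases, per the file headers. Bowtie2 2.2.6, TopHat2 2.2.1, bcl2fastq and mm10 are named in the submitters' processing notes. Which program counted, with which strand setting and how multiply mapped reads were treated: not given in the sources used here. Reads of overlapping transcripts therefore cannot be separated. No member had counts identical to another symbol.

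The row of highest total was kept for each of 23992 symbols. Every row named a gene and 0 per-sample columns were left unused. After filterByExpr (minimum count 10, minimum total 15), TMM factors were computed and KO was compared with WT over all 6 libraries by edgeR 4.0.16 (robust quasi-likelihood F-test, R 4.3.3), with Benjamini-Hochberg adjustment over 12720 genes and no block. SE is the absolute log2 fold change over the square root of F. Ratios of read counts, chosen after the data were seen, were compared by two-sided exact permutation tests on the log2 scale, adjusted over 12 ratios. For ratios between genes 0.5 was added to counts, and for those between rows of 1 gene nothing was added. Counting error alone is covered by limits at 3 counts.

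Results were recomputed with different scaling, DESeq2 1.42.0, limma-voom 3.58.1 with and without quality weights, filters, rows, a block, a covariate and leaving out each library. The naming rule gave the 7 members, Crlf2, Foxp3, up to 4 called genes of smallest p per pathway list (2 where none was called), ligands by level, up to 3 markers of highest CPM per marker list, the tested neighbours of the cluster, and the 5 genes most like Il1rl1 and Il18r1 at a mean of at least 5 CPM (log2 CPM with prior count 2). Of the genes most like Il18r1, 1 is not reported here. Members and lists were chosen with earlier results of these data known.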

Additional observations from a re-analysis of the deposited data

How the results depend on the processing

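Of 119 log2 fold changes of the members under 17 alternatives, 112 kept direction and side of the threshold. Il1r2 crossed it in 3: DESeq2 (1.42, adjusted p = 0.000674), no low-count filter (1.43, edgeR adjusted p = 0.0395) and without WT replicate 3 (1.81). The number of members called was 1 in these and 0 elsewhere (0 to 1 when a library was left out). Unadjusted p-values under 0.05 numbered 4 with edgeR and DESeq2, 5 with limma-voom, and 2 with the lung epithelial share or without any 1 KO library. Over all 12720 tested genes they numbered 2018 with edgeR, 2152 with DESeq2, 2538 with limma-voom and 1835 with the lung epithelial share. Without 1 KO library they numbered 1336 to 1733, of 13065 to 13321 tested genes. Il1rap reversed with the replicate block (0.0335) and the lung epithelial share (0.44), and ran from -0.39 to 0.27 when a library was left out, above 0 without KO replicate 3 (0.04) or WT replicate 1. Foxp3 ran from -0.0667 (without WT replicate 3) to 0.47 when a library was left out and was 0.48 with the lung share.

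Over all genes 221 were called, 863 by DESeq2, 123 with the replicate block and 8 with the lung epithelial share. Leaving out a library gave 4 (KO replicate 1), 7 (KO replicate 3), 124 (KO replicate 2), 33 (WT replicate 1), 22 (WT replicate 2) and 518 (WT replicate 3). Scaled to T cell genes, 25 were higher and 170 lower, against 96 and 125. Of the pathway genes 5 were called, 11 by DESeq2, 8 by limma-voom with quality weights, 2 with the block, 0 with the lung share and 0 to 10 when a library was left out. The cause was not tested. Same-numbered libraries did not deviate together (Pearson r across genes 0.08, -0.15 and -0.04). With 3 libraries per group this cannot decide whether the numbers pair the samples, which the labels do not say. Il1r1 and Il1rap had 13 and 8 reads in WT replicate 2, the shallowest library.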
